A study of Homo sapiens with 9 samples.

Results

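These 916 regions of open chromatin were found in every peak list from 22Rv1 cells given WX-02-23 and in no kept list from cells given WX-02-43 or the DMSO vehicle. They were chosen from ATAC-seq peak lists, each shortened, by −log10 p on chromosomes 1 to 22 and X, to the length of the shortest (DMSO replicate 1). Intervals that shared at least 1 bp were then merged. The merge gave 110055 regions in all, so the 916 were 0.832% of them. In the full deposited lists 379 of them had a weaker peak in at least 1 WX-02-43 or DMSO library, and 537 had none, so "only" holds for all 916 at equal list length alone. The presence of peaks in these same lists chose the regions, so that count and the strength of their WX-02-23 peaks are given as description, with no test. Without WX-02-23 replicate 2 the same rule gave 1487 regions, and without WX-02-23 replicate 3 it gave 1426, as fewer lists then had to hold a peak.

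22Rv1 is a human prostate carcinoma line. In all 9 libraries the cells were gene-edited so that SF3B1, a core subunit of the spliceosome, carried the C1111S change. The groups, of 3 libraries each, were treated for 3 h: WX-02-23 at 20 µM, WX-02-43 at 20 µM, and DMSO at 0.1%. The labels call both compounds stereoprobes, and they do not say how many edited clones were used or whether replicates were separate cultures. Any p-value below therefore measures the spread between these libraries, which may be technical.

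ATAC-seq reads open chromatin through a transposase that inserts sequencing adapters where DNA is not wrapped tightly in nucleosomes. The series is about FOXA1, a forkhead transcription factor that can bind DNA in closed chromatin and make it accessible to others. Factors of this kind are called pioneer factors. In prostate epithelium FOXA1 opens many of the enhancers at which the androgen receptor binds. The peak lists hold intervals and no factor binding, and a genome of their build (hg19) was not used here. The regions are therefore given by position, without sequence, motif or gene names.

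The absence of a peak had a different meaning in each list, because lists of unequal length were brought to one length. The weakest kept peak had a −log10 p of 8.87, 6.94 and 7.59 in WX-02-23 replicates 1, 2 and 3, of 5.25, 7.54 and 7.92 in WX-02-43 replicates 1, 2 and 3, and of 4.10, 7.64 and 9.0 in DMSO replicates 1, 2 and 3. At each library's commonest background, this asked for summits of 9 to 13 fragments in WX-02-23, 8 to 12 in WX-02-43 and 7 to 12 in DMSO. DMSO replicate 1 lost no peak in this step. Deposited peaks that were ranked beyond the kept length are called unkept peaks below. Commonest backgrounds lay between 1 and 1.41 fragments, and the median kept peak had 23 to 30 fragments at its summit.

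The strongest regions stood well clear of these limits. Regions were placed by the rank of the weakest of their 3 WX-02-23 peaks. The first 12 had summits of between 20 and 53 fragments in every WX-02-23 library and mean folds of 8.88 to 14.9, where fold is the authors' enrichment of the summit over the local background. Even in the list where each ranked lowest, they stood within the first 22.4% to 41.8% of kept peaks.

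The first was on chromosome 13, from 105137888 to 105138519 (hg19, as are all positions below). Its summit held 45, 33 and 40 fragments in WX-02-23 replicates 1, 2 and 3, with folds of 15.5, 13.7 and 15.4 (14.9 ± 1.02, SD, n = 3). All 3 summits fell on the same base, and no deposited peak of any other library touched the region. The second, on chromosome 1 from 227632361 to 227632954, held 53, 40 and 44 fragments in WX-02-23 at a fold of 8.88 ± 0.29 (SD, n = 3). Its fold was lower than that of the first despite more fragments, since its local background was higher. Here too no other library had a peak.

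The other regions among the 12 without any deposited peak outside WX-02-23 were a pair. One lay on chromosome 11 from 103646357 to 103646869, with 34, 27 and 28 fragments in WX-02-23 replicates 1, 2 and 3 and a fold of 12.8 ± 0.33 (SD, n = 3). The other lay on chromosome 12 from 32329450 to 32329910, with 32, 28 and 29 fragments and a fold of 9.40 ± 0.24. In both, all 3 WX-02-23 summits were above the 7 to 12 fragments that a kept DMSO peak needed at its library's commonest background. Where the local background was higher, more fragments were needed.

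The remaining 8 of the 12 were not free of signal elsewhere. On chromosome 4 from 148492238 to 148492780, WX-02-23 had 38, 29 and 36 fragments in replicates 1, 2 and 3, and the fold averaged 12.2 ± 0.75 (SD, n = 3). There 1 WX-02-43 list had an unkept peak with 11 fragments and 4.98 fold. A second region on chromosome 4, from 99839901 to 99840321, held 29, 23 and 24 fragments in WX-02-23 and was touched by unkept peaks in a pair of WX-02-43 lists, the stronger at 4.61 fold. A second region on chromosome 13, from 67660335 to 67660895, held 32, 34 and 26 fragments in WX-02-23, and 1 DMSO list had an unkept peak there, of 11 fragments and 5.38 fold. Over these 8 regions the strongest peak outside WX-02-23 ran from 9 to 11 fragments and from 4.2 to 5.38 fold.

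The widest of all 916 was also among these 8. It lay on chromosome 1 from 32871853 to 32872793, spanned 941 bp, and held 36, 32 and 33 fragments in WX-02-23 replicates 1, 2 and 3. Its 3 summits fell within 10 bp of each other. A WX-02-43 list and 1 DMSO list had an unkept peak there, of at most 11 fragments. The other 4 varied in how closely the WX-02-23 libraries stood together. The fold was 10.6 ± 0.06 (SD, n = 3, as for the next 3) for the region at 49269416 to 49269852 of chromosome 20, the closest of the 12. It was 12.7 ± 1.95 for the region at 70762100 to 70762566 of chromosome 6, the widest spread of the 12. It was 11.5 ± 1.21 at 19514964 to 19515586 of chromosome 21, and 11.1 ± 1.0 at 118688511 to 118688999 of chromosome 7.

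**Figure D1:**
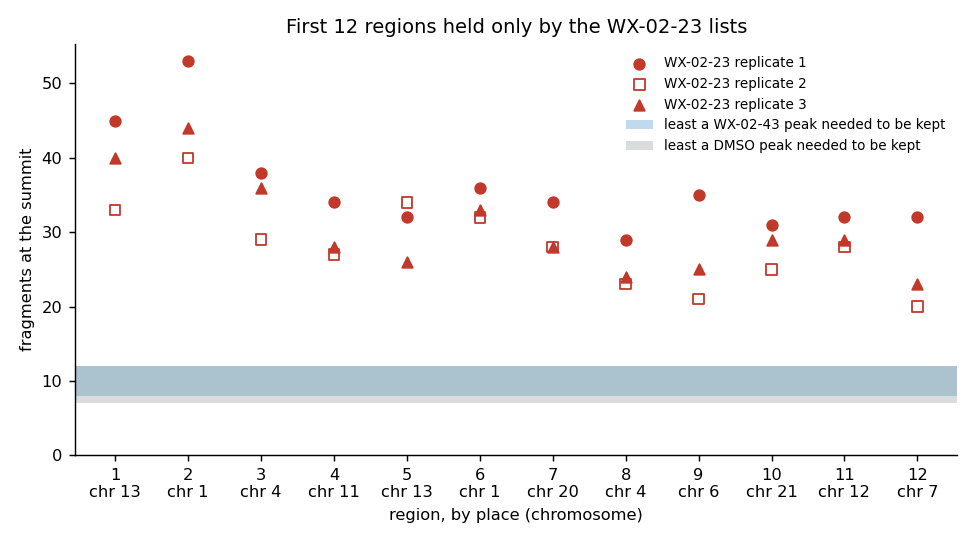
Fragments at the summit (vertical axis) in WX-02-23 replicates 1 to 3 for the first 12 regions by place (horizontal axis), with bands for the fewest fragments a peak needed, at a library's commonest background, to enter the kept WX-02-43 and DMSO lists. Points lie between 20 and 53 fragments, above bands of 8 to 12 for WX-02-43 and 7 to 12 for DMSO.

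All 23 chromosomes held at least 1 of the regions, and the first on each of the other 14 chromosomes showed how strength varied. On chromosome 8 from 84625981 to 84626426, summits held 34, 20 and 34 fragments in WX-02-23 replicates 1, 2 and 3, at 13.2 ± 2.48 fold (SD, n = 3). On chromosome 5 from 30216408 to 30216924 they held 25, 25 and 27, at 12.5 ± 1.15 fold. Those on chromosome 18 (62549420 to 62550026), chromosome 3 (80939907 to 80940495), chromosome 2 (63661906 to 63662473), chromosome X (143057304 to 143057828) and chromosome 10 (54212397 to 54212827) averaged folds of 12.7, 12.3, 11.3, 10.8 and 10.2 over the 3 WX-02-23 libraries. The region on chromosome X was the most isolated of the named ones, at 301 kb from the nearest region held by all 9 lists.

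The first regions on the other chromosomes had mean folds under 10. On chromosome 9 from 128516255 to 128516740 the mean fold in WX-02-23 was 9.96, on chromosome 14 from 88510516 to 88510967 it was 9.53, on chromosome 15 from 49786653 to 49787213 it was 9.26, and on chromosome 19 from 34816803 to 34817216 it was 7.38. On chromosome 17 from 80019345 to 80019684, summits held 52, 35 and 52 fragments in WX-02-23 replicates 1, 2 and 3, but over a higher local background, and the fold was 4.54 ± 0.82 (SD, n = 3). A low fold beside many fragments was also seen on chromosome 22 from 20188334 to 20188697 (35, 26 and 31 fragments, 6.46 ± 0.36 fold). On chromosome 16 from 53749740 to 53750051 the fold was 4.99 ± 0.91, the nearest region held by all 9 lists was 0.816 kb away, and 3 of the other 6 lists had an unkept peak, the strongest with 18 fragments.

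Over all 916, medians were lower than the values of the first 12. The median summit held 18, 14 and 15 fragments in WX-02-23 replicates 1, 2 and 3, against 41, 32 and 34 at the 54912 regions held by all 9 lists. The median fold was 6.87, 6.31 and 6.45 in the same 3 libraries, against 9.53, 9.16 and 9.35 at the regions held by all 9 lists. In 38 regions (4.15%) all 3 peaks stood in the upper 50% of their list, and in 673 (73.5%) at least 1 peak stood in the last 25%. A mean fold of 10 or more was reached by 41 regions (4.48%). Means ran from 2.41 to 14.9, and 87 regions averaged under 5 fold.

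The 3 WX-02-23 libraries ranked the regions alike only in part. Across the 916 regions, Spearman's rho of fold was 0.638 between replicates 1 and 2, 0.678 between replicates 1 and 3 and 0.617 between replicates 2 and 3. Across the regions held by all 9 lists, which span a wider range of strength, it was 0.879, 0.886 and 0.885 for the same pairs. These are correlations across regions of the same libraries, which are not independent replicates. The coefficient of variation of fold over the 3 libraries had a median of 10.9% (middle 50% of regions from 6.88% to 15.7%), against 8.01% at regions held by all 9. Replicate 1 gave the highest of the 3 folds in 437 regions, replicate 2 in 211 and replicate 3 in 268.

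**Figure D2:**
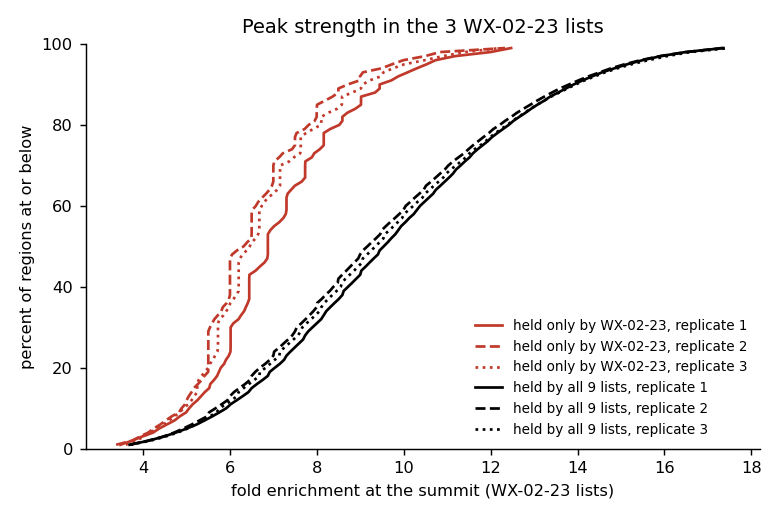
Percent of regions (vertical axis) at or below each fold enrichment (horizontal axis) in WX-02-23 replicates 1 to 3, for the 916 regions and for the regions held by all 9 lists. The 916 regions lie to the left in each library, with medians of 6.87, 6.31 and 6.45 against 9.53, 9.16 and 9.35.

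At the edge of the rule, regions inside and outside had close values. The last 3 inside were on chromosome 12 from 131616983 to 131617249, with 16, 16 and 17 fragments in WX-02-23 replicates 1, 2 and 3, and on chromosome 1 from 92225819 to 92226105 and from 107741273 to 107741566, each with 13, 9 and 10 fragments. Just outside was a region on chromosome 3 from 18276494 to 18276786, with 15, 10 and 10 fragments, where the peak of replicate 3 stood 28 places beyond the kept length. The next were on chromosome 1 from 181623724 to 181624166 (14, 9 and 11 fragments, replicate 2 beyond it by 51 places) and from 186373701 to 186373893 (13, 9 and 12 fragments, replicate 2 beyond by 62 places). In all, 1502 regions were held by 2 WX-02-23 lists and by none of the other 6, and in 654 of them (43.5%) the third WX-02-23 list had an unkept peak.

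The regions were narrow. Their median width was 376 bp (middle 50% from 313 to 460 bp), against 643 bp for regions held by all 9 lists and 277 bp for the 5263 other regions held by exactly 3 lists. The narrowest spanned 172 bp. After the widest, the next were on chromosome 5 from 133603037 to 133603946 (910 bp, 7.58 ± 1.19 fold, SD, n = 3) and on chromosome 10 from 63596027 to 63596888 (862 bp, 4.61 ± 0.64 fold). Together the 916 covered 361 kb, 0.644% of the bases in all merged regions. Summits of the 3 WX-02-23 libraries fell within 50 bp of each other in 281 regions (30.7%) and within 100 bp in 608, and lay over 200 bp apart in 70. At regions held by all 9 lists, 49.9% had the 3 WX-02-23 summits within 50 bp. Of the other regions held by exactly 3 lists, 41.6% had the summits of their own 3 lists within 50 bp. A peak in a bulk library can rise because more cells open a site or because each cell opens it more, and these cannot be told apart here.

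The deposited lists did not leave these regions empty outside WX-02-23. In 379 of the 916 (41.4%), at least 1 of the 6 WX-02-43 and DMSO lists had an unkept peak. The other 537 (58.6%) had no deposited peak in any of the 6. For comparison, 680 regions were held by those 6 lists and by no WX-02-23 list. In 406 of the 680 (59.7%), at least 1 of the 3 WX-02-23 lists had an unkept peak. The 2 shares rest on unequal numbers of lists and of unkept peaks, and were not tested. No like share over all merged regions is given, so the 41.4% is not read as a trait of the 916. Of the 379, 229 were touched in 1 list, 112 in 2, 32 in 3 and 6 in 4, and none in 5 or 6.

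The unkept WX-02-43 and DMSO peaks had lower medians than the WX-02-23 peaks in the same regions. The rule favours this, since it kept every WX-02-23 peak there and barred kept peaks of the other lists. The values are therefore given as description. In WX-02-43, 5, 135 and 207 regions were touched in replicates 1, 2 and 3, and in DMSO 0, 70 and 156. The lists had 356, 12546 and 15670 unkept peaks in WX-02-43 and 0, 8234 and 19076 in DMSO, so the lists offered unequal numbers of peaks and the counts were not tested between groups. Where WX-02-43 replicate 3 had such a peak, its median was 11 fragments and 4.56 fold, against 16.0 fragments and 6.73 fold for the mean of the 3 WX-02-23 peaks in the same regions. Where DMSO replicate 3 had one, its median was 11 fragments and 4.91 fold, against 15.5 fragments and 6.57 fold in WX-02-23. Regions touched by WX-02-43 alone numbered 187, by DMSO alone 93 and by both 99. No like counts over other regions are given beside these, and they were not tested.

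The 2 kinds of region had close medians of strength. The 379 with a peak elsewhere had a median fold of 6.69 and 16.0 fragments in WX-02-23, and the 537 without had 6.53 and 15.7. Among the 305 strongest by place, 131 (43.0%) had a peak elsewhere, against 123 of the middle 305 (40.3%) and 125 of the last 306 (40.8%).

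Because the same lists chose the regions and gave their values, each library was next left out of the choice. Regions were chosen on 2 libraries of each group, held by both WX-02-23 lists and by none of the other 4, and then looked up in the 3 libraries left out. The 27 ways of doing so gave 1795 to 2020 regions each. The left-out WX-02-23 list held 60.4% to 69.2% of them (median 64.5%). The left-out WX-02-43 list held 15.3% to 18.0% (median 16.2%), and the left-out DMSO list held 10.9% to 15.1% (median 13.3%). The ranges for WX-02-23 and for the others did not overlap. The 27 choices share libraries, so no p is given.

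For comparison, among all regions held by any 2 of the 6 libraries used for the choice, a left-out WX-02-23 list held 34.1% to 39.6%, a left-out WX-02-43 list 26.0% to 31.1% and a left-out DMSO list 25.5% to 34.4%. In all 27 choices, which share libraries, regions chosen for WX-02-23 were held more often than such regions by the left-out WX-02-23 list. They were held less often by the left-out WX-02-43 and DMSO lists. Medians were 68.3%, 61.6% and 64.5% for WX-02-23 replicates 1, 2 and 3 when left out. The comparison set mixes groups, so it is not matched to a choice on 2 lists of the same group. Every left-out list also took part in choosing the 916 regions. These shares therefore describe the lists and are no separate support for the 916.

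At these regions the left-out WX-02-43 lists held more than the left-out DMSO lists. Medians were 16.0%, 16.2% and 16.6% for WX-02-43 replicates 1, 2 and 3 and 11.6%, 13.3% and 14.4% for DMSO replicates 1, 2 and 3, and these 3 and 3 medians did not overlap. The choice had treated the 2 groups alike, but the choices share libraries, and a cause of this order was not tested. At regions held by any 2 of 6 libraries, the order was not the same, with medians of 26.6%, 29.0% and 30.0% for WX-02-43 and 26.5%, 30.2% and 32.5% for DMSO. A test of 3 libraries against 3 cannot give a two-sided p below 0.1, and none was run.

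The same procedure turned round to the other groups gave fewer regions that were held less often. Regions chosen on 2 WX-02-43 libraries numbered 586 to 787, and the left-out list held a median of 21.4% in WX-02-23, 41.4% in WX-02-43 and 32.3% in DMSO. Regions chosen on 2 DMSO libraries numbered 735 to 924, and the medians were 22.1% in WX-02-23, 30.7% in WX-02-43 and 42.2% in DMSO. In the full rule, 113 regions (0.103%) were held by the 3 WX-02-43 lists alone, 157 (0.143%) by the 3 DMSO lists alone, and 680 (0.618%) by the other 6 lists and no WX-02-23 list.

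**Figure D3:**
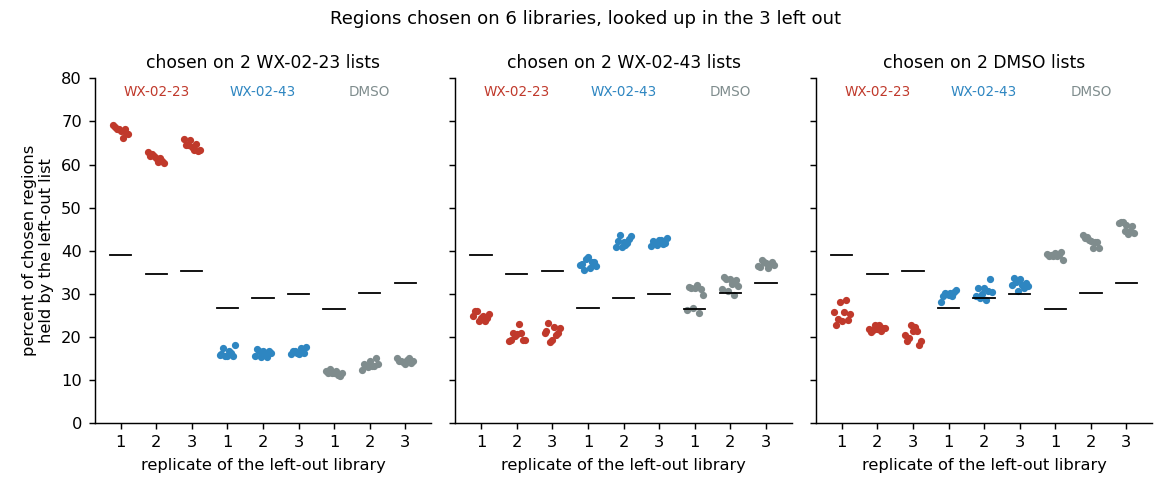
Percent of chosen regions held by a left-out list (vertical axis), by left-out library (horizontal axis), for regions chosen on 2 WX-02-23, 2 WX-02-43 or 2 DMSO libraries and absent from the other 4. Each point is 1 of 9 choices per library, black bars are the medians for all regions held by 2 of the 6 libraries, and the left-out WX-02-23 lists in the left panel lie at 60.4% to 69.2%.

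The regions lay on every chromosome, but not in even numbers. Of the 55143 regions held by 1 to 8 lists, they made up 1.66%. This share was highest on chromosome 8, at 58 of 2657 (2.18%, 95% exact Clopper-Pearson interval 1.66% to 2.81%). Next were chromosome 3, at 75 of 3628 (2.07%, interval 1.63% to 2.58%), and chromosome 13, at 34 of 1687 (2.02%, interval 1.40% to 2.81%). The share was lowest on chromosome 19, at 6 of 1506 (0.398%, interval 0.146% to 0.865%). It was also low on chromosome 22, at 8 of 854 (0.937%, interval 0.405% to 1.84%), and chromosome 9, at 21 of 2170 (0.968%, interval 0.60% to 1.48%). On chromosome 17 it was 18 of 1858 (0.969%, interval 0.575% to 1.53%), and on chromosome 15 it was 17 of 1678 (1.01%, interval 0.591% to 1.62%). The intervals of chromosomes 3, 13 and 22 took in the overall 1.66%, and that of chromosome 8 began at 1.66%. The intervals cover counting error only.

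The mirror set, held by the other 6 lists and by no WX-02-23 list, was compared in the same way. It too was rarest on chromosome 19, at 5 of 1506 (0.332%). Its overall share was 1.23%. On chromosomes 9, 14 and 18 it was above that share while the WX-02-23 set was below its own, as on chromosome 9 with 21 of 2170 (0.968%) in the WX-02-23 set and 34 of 2170 (1.57%) in the mirror set. On chromosomes 7, 8, 11 and 13 the order was the reverse, as on chromosome 11 with 50 of 2644 (1.89%) in the WX-02-23 set and 21 of 2644 (0.794%) in the mirror set. Chromosomes were compared after the counts were seen, and these differences were not tested.

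**Figure D4:**
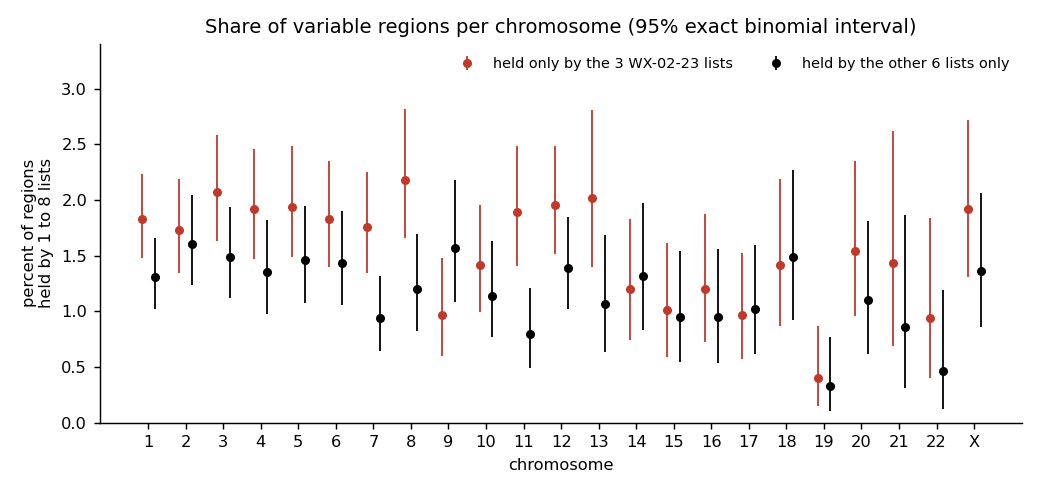
Share of the regions held by 1 to 8 lists (vertical axis, percent) that were held by the 3 WX-02-23 lists alone or by the other 6 lists alone, by chromosome (horizontal axis), with 95% exact binomial intervals. Chromosome 19 is lowest for both sets (0.398% and 0.332%), and on chromosomes 7, 8, 9, 11, 13, 14 and 18 the sets stand on opposite sides of their overall shares (1.66% and 1.23%).

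Distance to chromatin that was open in every library was close to that of other variable regions. The nearest region held by all 9 lists was a median of 16.0 kb away (middle 50% from 5.80 to 44.1 kb), against 17 kb for the mirror set and 13.8 kb for other regions held by exactly 3 lists. It was within 25 kb for 559 (61%), within 1 kb for 75 (8.19%) and beyond 100 kb for 78 (8.52%). The share within 25 kb was 61.9% for the mirror set, 65.7% for other regions held by 3 lists and 65.2% for all regions held by 1 to 8. The shares within 1 kb were 6.03%, 12.1% and 11% for the same sets, and those beyond 100 kb were 7.21%, 6.56% and 6.67%.

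The next of the 916 was a median of 886 kb away, within 100 kb for 90 (9.83%) and within 25 kb for 28 (3.06%). One of the 916 lay within 100 kb of 7.37% of other regions held by 3 lists and of 6.85% of all regions. Within 25 kb the shares were 2.41% and 1.97%. These differences were not tested. Linking regions less than 100 kb apart left 826 on their own, 42 pairs and 2 groups of 3. The tightest group was on chromosome 1, where 3 regions lay within 35.0 kb, from 202492105 to 202492526, 202497248 to 202497729 and 202526929 to 202527119. Their folds in WX-02-23 were 6.92 ± 1.56, 6.28 ± 0.50 and 5.46 ± 0.52 (SD, n = 3), none among the strongest. The other group of 3 spanned 132 kb of chromosome 3 from 80055222 to 80187481. Regions of the mirror set were within 100 kb of 60 of the 916, and within 25 kb of 15.

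Whether WX-02-23 also moved the constitutive chromatin beside these regions was asked at the 1053 regions that all 9 lists held within 25 kb. The rule did not use their peaks. The local background of a close neighbour can take in fragments of the chosen region itself, so the fold of close neighbours is not independent of the choice and is given as description. For each library the median log2 fold of the neighbours was set against the median of all 54912 regions held by all 9 lists, which removes any shift of a whole library. Relative to the rest, the neighbours stood at -0.071, -0.049 and -0.055 in WX-02-23 replicates 1, 2 and 3, against 0.0049, -0.016 and -0.037 in WX-02-43 and 0.0085, -0.026 and -0.032 in DMSO. The 3 WX-02-23 values were the lowest of the 9.

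WX-02-23 averaged -0.058 ± 0.011 (SD, n = 3) and the other 6 libraries averaged -0.016 ± 0.019 (SD, n = 6), a log2 difference of -0.042 or a ratio of 0.971 (exact two-sided permutation p = 0.024 over 84 splits, adjusted p = 0.095 over 4 comparisons). The choice of regions can by itself lower this fold in WX-02-23, since the fold holds the background term. The p-values of these fold comparisons therefore do not test an effect on the neighbours. The difference did not pass the threshold of 0.05 after adjustment, and no call is drawn from this test in any setting. Its adjusted p over the settings tried ran from 0.048, with neighbours within 10 kb and with all deposited peaks, to 0.70 (exact permutation). With dose and time matched between the compounds, WX-02-23 minus WX-02-43 was -0.042 (exact permutation p = 0.1, adjusted p = 0.13), with differences between single libraries of -0.076 to -0.012. WX-02-23 minus DMSO was -0.042 (exact permutation p = 0.1, adjusted p = 0.13), and 0.1 is the smallest p these groups allow. WX-02-43 and DMSO had the same mean to 4 decimals, -0.0163 each (exact permutation p = 1), with differences between single libraries of -0.046 to 0.037. That p does not show that they act alike.

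A fold is a summit divided by its local background, and the 2 terms are given apart. Near the regions the local background in WX-02-23 stood at 0.12, 0.086 and 0.081 (log2 of background plus 1, relative to all regions held by 9 lists) in replicates 1, 2 and 3, against 0.0059, 0.026 and 0.025 in WX-02-43 and 0.012, 3.6e-07 and 0.016 in DMSO. All 3 WX-02-23 values exceeded all 6 others (mean difference 0.082), and no test is given, since this measure is the one nearest to the rule. The summit fragments of the same neighbours were not lower in WX-02-23: their median shift (log2 of fragments plus 1) was 0.034, 0 and 0.080 in WX-02-23, against -0.044, 0 and 0 in WX-02-43 and 0, -0.040 and -0.035 in DMSO. The fragment difference from the other 6 was 0.058 (exact permutation p = 0.060, adjusted p = 0.24), a measure added after the data were seen. The lower fold near the regions came with more background and not with fewer summit fragments. How the authors' peak caller was set to take its background was not given in the sources used here.

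By distance, the fold difference was below 0 up to 10 kb and above 0 from 10 to 25 kb. At 2 to 5 kb (121 neighbours) the log2 fold in WX-02-23 differed by -0.18 from the other 6, with a background difference of 0.22 and a fragment difference of 0.11. At 0 to 2 kb (127 neighbours) the fold difference was -0.090, and at 5 to 10 kb (231 neighbours) -0.042. From 10 to 25 kb (574 neighbours) the fold difference was 0.018 and from 250 to 1000 kb (15765 regions) it was -0.00075. Around the mirror set the fold difference was 0.034 at 0 to 2 kb, 0.046 at 2 to 5 kb, -0.022 at 5 to 10 kb and -0.025 at 10 to 25 kb. Over all 779 neighbours of the mirror set it was -0.0075.

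Counted region by region, 80 of the 1053 neighbours (7.60%) had a centred fold lower in all 3 WX-02-23 libraries than in all 6 others, against 3.76% of all regions held by 9 lists. In the other direction there were 35 (3.32%), against 2.78%. Near the mirror set, 45 of 779 (5.78%) were lower and 29 (3.72%) higher. At 2 to 5 kb, 29 of 121 (24.0%) were lower and 2 were higher. These counts use the same fold, with the background term that can take in fragments of the chosen regions, and nothing is read from them about the neighbours' own summits.

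**Figure D5:**
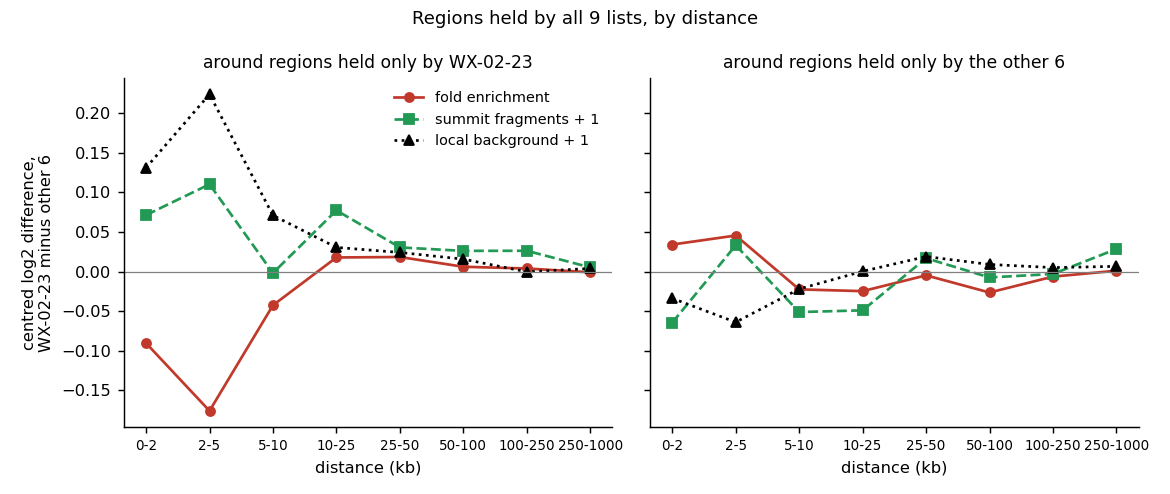
Difference between WX-02-23 and the other 6 libraries (vertical axis, centred log2 units) in fold, summit fragments and local background of regions held by all 9 lists, by distance (horizontal axis, kb) from the WX-02-23 regions (left) and from the mirror set (right). Near the WX-02-23 regions fold dips to -0.18 at 2 to 5 kb while background rises to 0.22, and beyond 25 kb all 3 lines lie close to 0.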

How the data were processed

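ATAC-seq peak lists of 9 libraries were used, 3 each for WX-02-23, WX-02-43 and DMSO. The submitters' processing notes name Bowtie2, MACS2 and hg19. Versions, settings, duplicate removal and read shifting were not given in the sources used here. For every library there is a list of its own. The authors' deposited lists give a fold (ratio of summit to local background), −log10 p and −log10 q values per peak, and a score that was not used. These are the authors' own values, set within one library.

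Lists were shortened to the length of the shortest by −log10 p and merged at 1 bp. The summit fragments, as whole numbers, and the background were solved from fold and −log10 p under a Poisson model. The solved values gave back the −log10 p to within 0.002 for 100% of peaks in every list. A fragment is the unit MACS2 stacked, and read totals were not analysed here. Distances run between region edges. The regions, the comparisons and their settings were chosen with earlier results of these data known. Regions named are the first 12 by worst rank, the first on every other chromosome, 3 just inside and 3 just outside the rule, the 3 widest and those of the densest 100 kb. Chromosome Y was left out. Two-sided exact permutation tests over libraries used Benjamini-Hochberg adjustment over 4 comparisons. Counting and tests were tested on simulated data. The simulated lists were not shortened to a common length, and their fold was drawn without a background term. The simulation therefore does not check the effect of those features. Python 3.11.15, numpy 2.4.6, pandas 2.3.3 and scipy 1.17.1 were used. A genome and annotation of hg19 were not used here, so the motif search that had been planned was not run.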

Additional observations from a re-analysis of the deposited data

Results flagged for a closer look

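Unkept peaks touched the 916 regions at a higher rate in WX-02-43 than in DMSO. The choice of regions did not use unkept peaks, but it barred kept peaks of these lists. Per 1000 such peaks, 14.0, 10.8 and 13.2 of the regions were touched in WX-02-43 replicates 1, 2 and 3, against 8.50 and 8.18 in DMSO replicates 2 and 3. DMSO replicate 1 had no unkept peak, and the value of WX-02-43 replicate 1 rests on 5 regions and 356 peaks. The rate was not tested, since the lists differ in how far beyond the kept length they reach. No rate over other regions is given beside it, so it is not read as a trait of the 916.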

How the results depend on the processing

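The count of regions stayed within 1.5 times 916 in every planned setting but 2. It was 1161 from all deposited peaks, 662 from the 50000 strongest, 906 with −log10 q of at least 5 on the present side and 1014 with it on all peaks, 1187 where a peak had to cover 50% of a region, 939 from summit windows, and 917 and 920 from lists ranked by −log10 q and by fold. A like count did not mean the same regions: 94 of the 916 were found again among the 50000 strongest, 537 from all deposited peaks and 597 with lists ranked by fold. Regions with no deposited peak elsewhere numbered 537, a setting added after the data were seen. Without each library in turn the count ran from 1006 to 1487, since fewer lists then had to meet the rule, and it passed 1.5 times without WX-02-23 replicate 2 (1487) or replicate 3 (1426).

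The fold difference of neighbours between WX-02-23 and the other 6 passed the threshold after adjustment within 10 kb (-0.091) and with all deposited peaks (-0.041; exact permutation, adjusted p = 0.048 for each), but the fold is not independent of the choice and no call is drawn from it. In its other settings adjusted p ran from 0.071 to 0.70. With summit fragments in place of fold (added after the data were seen) the differences turned to 0.058 against the other 6, 0.063 against DMSO and 0.053 against WX-02-43. With percentiles of −log10 p, the differences were -0.207 percentile points against the other 6, 0.072 against DMSO, -0.487 against WX-02-43, and 0.559 between WX-02-43 and DMSO. In log2 fold this last comparison changed sign within 100 kb (-0.0021), with all deposited peaks (-0.0039), for regions with no peak elsewhere (-0.0064) and for neighbours beyond 2 kb (-0.011), of which the last 2 were also added later. The causes were not tested. Without each library, differences ran from -0.047 to -0.027 (WX-02-23 against the other 6), -0.049 to -0.023 (against DMSO), -0.053 to -0.026 (against WX-02-43) and -0.011 to 0.017 (WX-02-43 against DMSO).

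Deviations of same-numbered libraries of different groups correlated from -0.13 to 0.16. No values for differently numbered libraries are given beside them, so these do not decide whether replicate numbers pair the libraries. With the replicate block the difference was -0.042 (exact permutation p = 0.037, adjusted p = 0.13), on the same side of the threshold. The motif search was not run. Depth limits what can be called: a peak needed 6 or 7 fragments to be deposited at the commonest background.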
